A study of Mus musculus with 10 samples.

Results

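The genes described here are those named as proteins of the cytosolic ribosome. They were taken by symbol (Rpl, Rps or Rplp, then a number and nothing further but digits or the letters a, x, y and l), which leaves out symbols with the pseudogene ending -ps and the S6 kinases, and 66 of 22180 genes tested met this. RefSeq lists 2 of the 66, Rpl6l and Rps4l, as pseudogenes. The set comprised 22 small subunit proteins, 35 large subunit proteins and 9 paralogs that lie outside the standard set. That standard set has 80 proteins, 57 of them members. Fau and Rpsa were measured under symbols outside the rule, and 12 genes (Rps2, Rps15a, Rps21, Rpl10, Rpl12, Rpl13a, Rpl23, Rpl24, Rpl31, Rpl35a, Rpl36 and Rpl36a) were named only on probe sets with several symbols. The rest of the standard set is not analysed here.

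RNA came from a 3 cm piece of the mid small intestine (jejunum) of female mice aged 10 to 12 weeks, hybridised to Affymetrix whole-transcript arrays. The 5 knockout samples were Pcyt1aLoxP/LoxP;VilCreERT2, carrying a Cre that tamoxifen activates and that the villin promoter restricts to epithelial cells of the gut, so that other cells of the piece keep the gene. The 5 control samples were Pcyt1aLoxP/LoxP without Cre. All animals had floxed Pcyt1a alleles, tamoxifen for 5 days, high-fat food for 3 days, a night without food and then 2 hours of high-fat food. Pcyt1a encodes the enzyme of the rate-limiting step of phosphatidylcholine synthesis. The groups were compared to learn which jejunal mRNAs respond, after fat feeding, to loss of Pcyt1a in the epithelium. Effects of active Cre and of the lost gene cannot be told apart in this design, and in a whole piece of tissue fewer cells of a type and less RNA per cell cannot be told apart either. In the labels' target gene Pcyt1a, log2 intensity was 7.51 ± 0.16 (SD, n = 5) in the knockout arrays, and the controls stood at 9.22 ± 0.20 (SD, n = 5), with no overlap and a difference of -1.71 (SE 0.11, limma adjusted p = 6.51e-05). Arrays were alike in level, with medians over all probe sets of 45.8 to 48.1 on the linear scale and pairwise correlations of 0.972 to 0.993 over the tested genes.

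The cytosolic ribosome joins a small subunit, which reads the mRNA, to a large subunit, which forms the peptide bond. Its proteins are made in matched amounts, and their mRNAs begin with a C and a run of pyrimidines, the 5′ TOP (terminal oligopyrimidine) tract, through which mTORC1 and the RNA-binding protein LARP1 set their translation. In the small intestine, ribosome production is high in the dividing cells of the crypts. The arrays measure mRNA, not translation.

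Sequences around the annotated starts are shown because that tract is the feature these genes are known to share. RefSeq start sites (build GRCm38.p6) were found for 51 of the 66 members. Each window holds 15 bases before the start and 15 from the start on, on the sense strand. A tract was counted where a C was followed by at least 5 bases that were each C or T, and the longest tract is in capitals. The first 7 lines are the members with the smallest p among those with higher values in knockout, where an entry existed, then come Rps6 and 2 members with lower values.
Rpl34 (chr3:130730323-130730352, minus strand): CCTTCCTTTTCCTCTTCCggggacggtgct
Rps27l (chr9:66946071-66946100, plus strand): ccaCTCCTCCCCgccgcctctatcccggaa
Rpl41 (chr10:128549154-128549183, minus strand): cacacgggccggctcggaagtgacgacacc
Rpl19 (chr11:98026909-98026938, plus strand): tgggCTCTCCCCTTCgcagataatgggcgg
Rps27 (chr3:90213634-90213663, minus strand): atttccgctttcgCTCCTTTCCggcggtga
Rpl27 (chr11:101442230-101442259, plus strand): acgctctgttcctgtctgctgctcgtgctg
Rps12 (chr10:23787195-23787224, minus strand): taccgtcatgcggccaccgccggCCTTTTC
Rps6 (chr4:86857353-86857382, minus strand): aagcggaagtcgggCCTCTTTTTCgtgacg
Rpl32l (chr10:20208424-20208453, plus strand): aaataaaatgaccagCTTCTTCCTTggtgc
Rps15 (chr10:80292416-80292445, plus strand): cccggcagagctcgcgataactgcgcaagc
A tract lay in the window of 29 of 51 members (56.9%), against 25.5% of the 27025 genes with an entry. It was counted anywhere in the window and need not lie at the start, as in Rps12, where it ends the window. A gene with several annotated starts was counted if any window held a tract, and the window with the longest tract is printed. Annotated starts can lie some bases from the true one, so a window with no tract says only that these letters are not in it. Members with a tract had a median difference between knockout and control of 0.23 on the log2 scale and 26 of 29 had higher values in knockout. The 22 members without one had a median of 0.17, with 20 higher.

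Most ribosomal protein transcripts had slightly higher values in knockout, and none passed the test over all genes. Values were higher in 61 of 66 members, against 49.9% of all genes. The median difference over the members was 0.23 (log2 intensity, knockout minus control), against -0.000354 over all genes. In limma's test with Benjamini-Hochberg adjustment over 22180 genes, 0 of 66 members were called at adjusted p under 0.05, where 0.343% of all genes were called, and adjusted p over the members ran from 0.112 to 0.990. At an unadjusted p under 0.05 there were 7 members (10.6%), all higher, against 12.1% of all genes in either direction, 5.82% with higher and 6.25% with lower values. The members' share thus lay below that of all genes in either direction and above that of genes with higher values. The median standard error of a member was 0.16, against 0.11 over all genes, so that a typical difference was less than 2 standard errors.

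**Figure D1:**
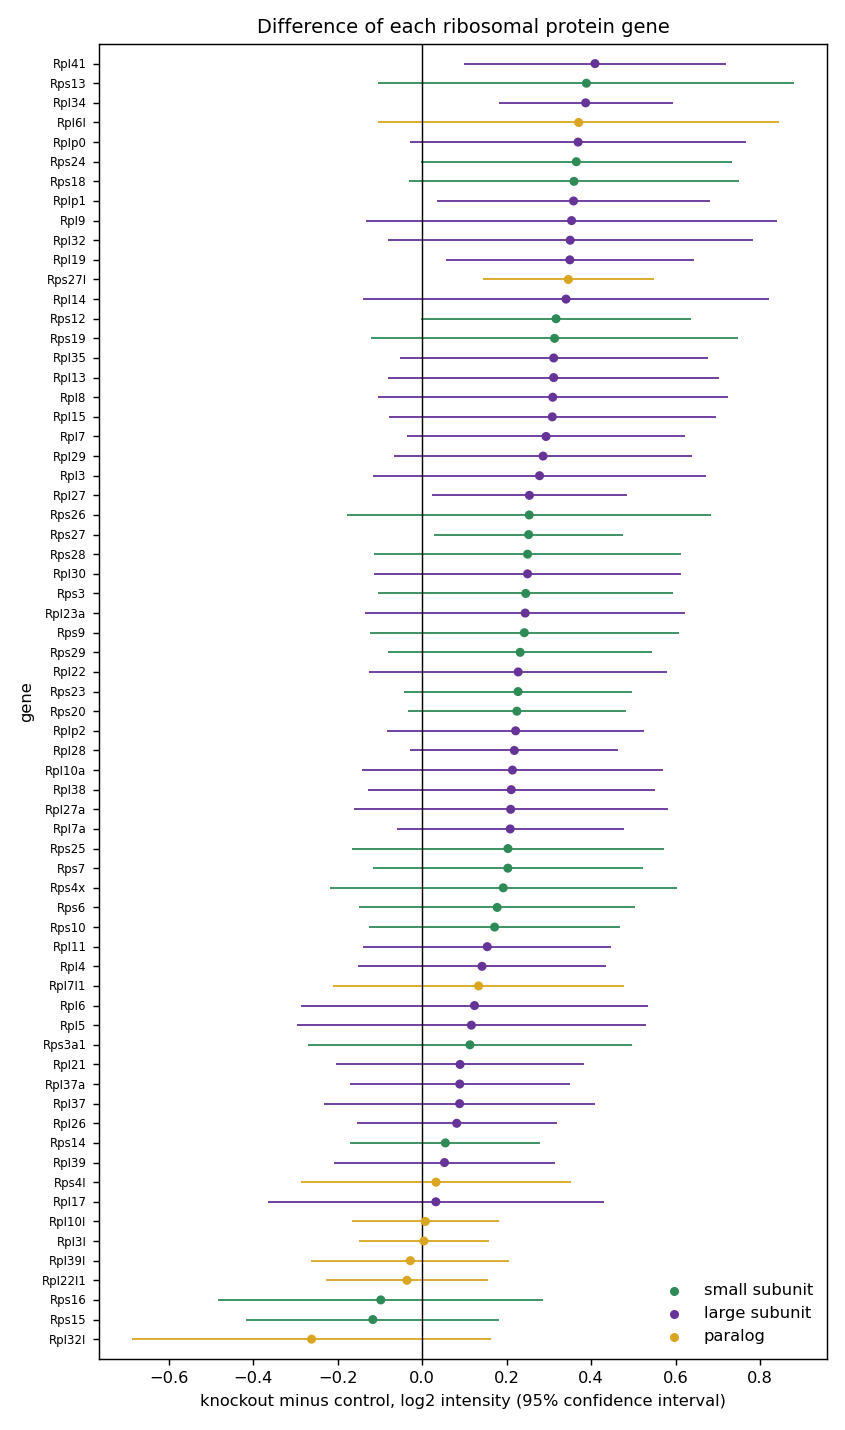
Difference in log2 intensity between 5 knockout and 5 control arrays for each of the 66 ribosomal protein genes, with its 95% confidence interval from limma; colours mark small subunit, large subunit and paralog genes. All but 5 points lie to the right of 0, and most intervals include 0.

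The members moved up and down together over the arrays, within groups as well as between them. Each value was taken relative to that gene's own mean over the 10 arrays, and these were averaged over the members. That mean was 0.04, 0.19, 0.09, 0.41 and -0.22 in knockouts 1 to 5, and -0.03, -0.12, 0.17, -0.21 and -0.32 in controls 1 to 5. Knockout 4 was the highest array and control 5 the lowest, knockout 5 lay among the low controls, and control 3 lay among the knockouts, so the groups overlapped. In knockout 4, 63 of 66 members stood above their own mean, against 8 in knockout 5, and in controls the count ran from 3 in control 4 to 56 in control 3. Knockout 4 held the highest value of all arrays in 49 members, and control 5 the lowest in 38. The shared profile, the mean over the members in each array, took 57.0% of the members' variance over arrays.

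**Figure D2:**
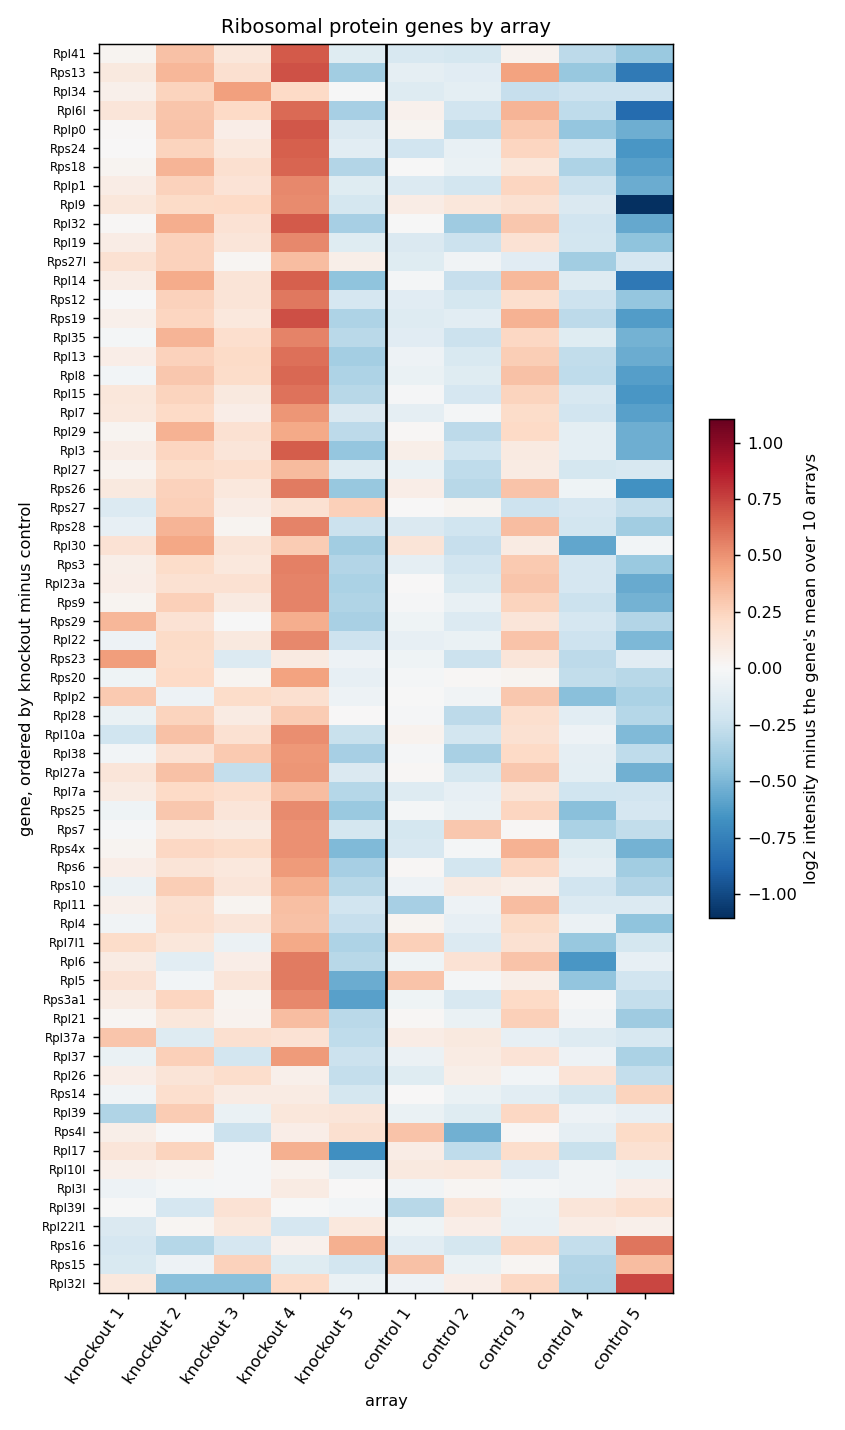
Log2 intensity of each ribosomal protein gene (rows, ordered by difference) in each array (columns) minus the gene's mean over the 10 arrays; red is above and blue below that mean. The column of knockout 4 is red and that of control 5 blue for most genes, while knockout 5 and control 3 run against the rest of their groups.

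The counts followed these arrays. Without knockout 5, 33 members had an unadjusted p under 0.05, all higher, where 13.6% of all genes did (7.38% with higher values), and the median difference was 0.32. Without control 3 there were 28 (13.4% of all genes) and the median was 0.30. Without knockout 2 or control 4 there were 4 each (9.31% and 10.8% of all genes), and without knockout 4 or control 5 there were 3 each (9.72% and 10.5% of all genes). The median difference was 0.14 without knockout 4. Without knockout 1 and control 5 together, the arrays that stood apart in earlier results of these data, 4 members had an unadjusted p under 0.05 (12.1% of all genes), 62 were higher and the median was 0.18. In each of these fits 0 members were called.

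Large subunit genes were higher in 35 of 35 cases and small subunit genes in 20 of 22. Their median differences were 0.24 and 0.23. Unadjusted p was under 0.05 in 5 (14.3%) and 1 (4.55%) of them, all higher. Over all genes that share was 12.1%, with 5.82% higher. The smallest p of all members belonged to Rpl34, a protein of the large subunit. Its log2 intensity was 7.22, 7.41, 7.62, 7.39 and 7.17 in knockouts 1 to 5 and 7.02, 7.06, 6.91, 6.94 and 6.94 in controls 1 to 5. Every knockout lay above every control, by 0.39 on average (SE 0.09, 95% confidence interval 0.18 to 0.59, limma adjusted p = 0.112), or 1.31-fold. Its adjusted p was between 0.0567 and 0.262 over 19 alternative settings.

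Only Rpl34 and the paralog Rps27l had groups that did not overlap. That is 3.03% of the members, against 2.77% of all genes (1.20% higher and 1.56% lower). Rpl41, the smallest ribosomal protein, had values of 11.54, 11.83, 11.64, 12.19 and 11.38 in knockouts 1 to 5 and 11.34, 11.32, 11.55, 11.22 and 11.10 in controls 1 to 5. Its mean difference was 0.41 (SE 0.14, adjusted p = 0.275), the largest of the members on the probe sets used, and control 3 reached above the lowest knockouts. Rpl19, at 0.35 (SE 0.14), and Rpl27, at 0.25 (SE 0.11), both of the large subunit, had adjusted p of 0.325 and 0.364. In the small subunit Rps27, a zinc-binding protein, was at 0.25 (SE 0.10) and Rps12 at 0.32 (SE 0.15).

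**Figure D3:**
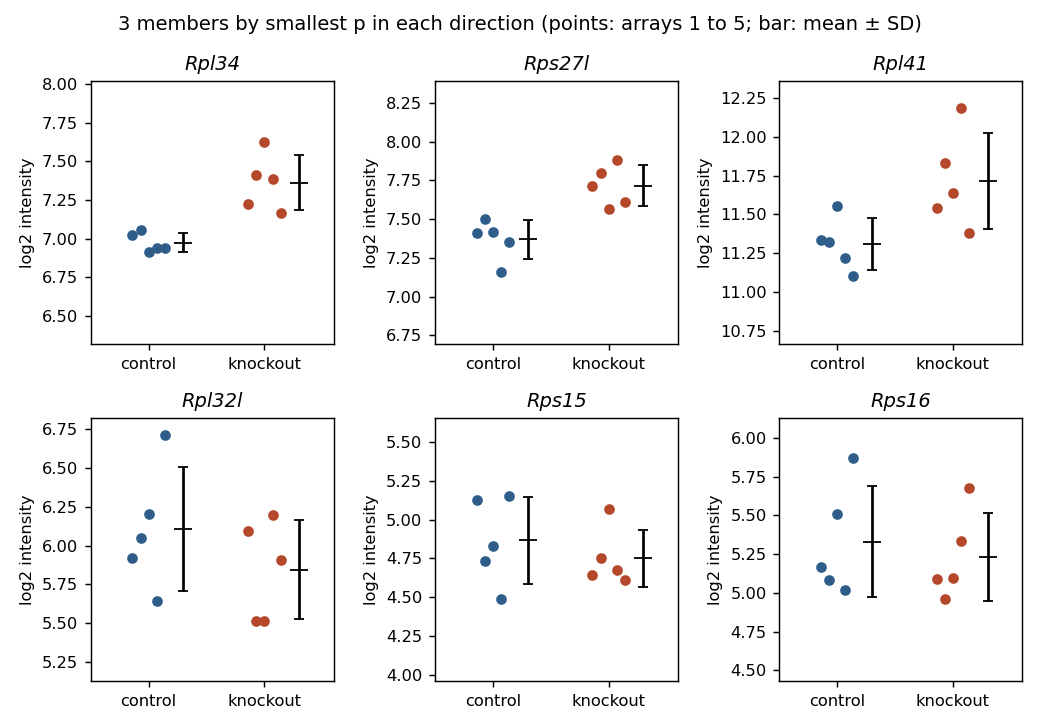
Log2 intensity by array of the 3 members with the smallest p among those higher in knockout (Rpl34, Rps27l and Rpl41) and the 3 among those lower (Rpl32l, Rps15 and Rps16); points are arrays and bars are the mean ± SD of 5. The groups are apart in Rpl34 and Rps27l and overlap in the other 4 genes.

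The stalk of the large subunit, which recruits translation factors, is built of Rplp0, Rplp1 and Rplp2. Rplp1 averaged 10.68 ± 0.28 (SD, n = 5) over the controls and 11.04 ± 0.24 (SD, n = 5) over the knockouts, which differ by 0.36 (SE 0.15, limma adjusted p = 0.357). Rplp0, the base of the stalk, had a difference of 0.37 (SE 0.18) and Rplp2 of 0.22 (SE 0.14), on a dim probe set. The stalk genes thus pointed one way, with intervals that for Rplp0 (-0.03 to 0.77) and Rplp2 (-0.08 to 0.53) include 0. Rps6, the substrate of the S6 kinases, lay between 11.66 and 12.49 in knockout arrays and between 11.64 and 12.25 in controls, with a difference of 0.18 (SE 0.15). Rpl5 and Rpl11, which join the 5S rRNA and can bind the p53 regulator Mdm2, were at 0.12 (SE 0.19) and 0.15 (SE 0.14). Their probe sets were dim too, with mean log2 intensities of 6.02 and 5.55, against 12.02 for Rps6. The difference of Rpl5 turned to -0.0131 without knockout 4.

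The 5 members with lower values were Rpl32l, Rps15, Rps16, Rpl22l1 and Rpl39l. Rpl32l, named as a relative of Rpl32, was at 6.09, 5.51, 5.51, 6.20 and 5.90 in knockouts 1 to 5 and at 5.92, 6.05, 6.20, 5.64 and 6.72 in controls 1 to 5. Its difference was -0.26 (SE 0.20, adjusted p = 0.651), and control 5 alone stood above every other array. Without control 5 it was -0.11. Rps15, a protein of the small subunit, was at 4.64, 4.75, 5.07, 4.68 and 4.61 in knockouts 1 to 5 and at 5.13, 4.73, 4.83, 4.49 and 5.15 in controls 1 to 5, with a difference of -0.12 (SE 0.14). Rps16, also of the small subunit, was at 5.09, 4.96, 5.10, 5.33 and 5.68 in knockouts 1 to 5 and at 5.17, 5.08, 5.51, 5.02 and 5.87 in controls 1 to 5, a difference of -0.10 (SE 0.18) that turned to 0.04 without control 5. In Rps15 and Rps16 the groups overlapped, and both probe sets were dim.

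Paralogs differed among themselves. Rps27l, a relative of Rps27 known as a p53 target, had values of 7.71, 7.80, 7.57, 7.88 and 7.61 in knockouts 1 to 5 and 7.41, 7.50, 7.42, 7.16 and 7.35 in controls 1 to 5. All knockouts were above all controls, with a difference of 0.35 (SE 0.09, adjusted p = 0.146), and knockout 5, low in most members, was not the lowest knockout. Rpl22l1 was at -0.04 (SE 0.09) where Rpl22 was at 0.23 (SE 0.16). Rpl3l, the form of striated muscle, was at 0.0042 (SE 0.07) where Rpl3 was at 0.28 (SE 0.18). Rpl10l and Rpl39l, both known from testis, were at 0.0077 (SE 0.08) and -0.03 (SE 0.11), and Rpl39 at 0.05 (SE 0.12). Rps4l, one of the listed pseudogenes, was at 0.03 (SE 0.15) where Rps4x was at 0.19 (SE 0.19), and Rpl7l1 at 0.13 (SE 0.16) where Rpl7 was at 0.29 (SE 0.15). Rpl6l, the other listed pseudogene, had the largest difference of the 9 paralogs, at 0.37 (SE 0.22, adjusted p = 0.544), where Rpl6 was at 0.12 (SE 0.19). The probe set of Rpl6l was the brighter, with a mean log2 intensity of 10.06 against 5.52 for Rpl6. Which transcripts it reads was not tested. The differences within these pairs were not tested. Over all 9 paralogs the median was 0.0077, with 6 higher, but 4 of the 9 used a probe set dimmer than the median gene. Mean log2 intensity over the arrays was 3.41 for Rpl10l, 4.70 for Rpl3l and 4.82 for Rpl22l1, against 8.52 for Rpl3. Differences near 0 on such dim probe sets do not show that these paralogs were unchanged.

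Brighter and dimmer probe sets differed in their values. Split at a mean log2 intensity of 8, a limit set after the values were seen, 34 brighter members were higher in 34 of 34 cases with a median of 0.28, and 32 dimmer ones in 27 of 32 with a median of 0.13. The 5 members with lower values were all among the dimmer ones. Of the 66, 14 used a probe set below the mean intensity of the median gene, although ribosomal protein mRNAs are known as abundant. Ribosomal protein genes also have many processed pseudogenes and near-identical copies, so a probe set may read more than the gene it names. In 24 members more than 1 probe set carried the symbol, and the brightest was used. The other 40 probe sets were higher in knockout in 38 cases, and the probe sets of 2 genes, Rpl19 and Rps18, disagreed in sign. Size varied between probe sets of a gene as well. An unused one of Rpl29 was at 0.80 (SE 0.20), against 0.29 for the one used. The unused one of Rpl19 was at -0.01 (SE 0.12), against 0.35. The 40 are not all separate readings. Several probe sets of Rps12 had the same mean and difference, and in Rpl23a and Rps19 an unused probe set repeated those of the one used.

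Both ribosomal protein genes measured outside the symbol rule had higher values in knockout. Rpsa, of the small subunit, was at 10.42, 10.60, 10.55, 11.18 and 10.14 in knockouts 1 to 5 and at 10.26, 10.13, 10.68, 10.06 and 9.45 in controls 1 to 5. Its difference was 0.46 (SE 0.22, adjusted p = 0.430), with overlapping groups. Fau, whose product is cut into a small subunit protein, was at 0.13 (SE 0.07).

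Genes that build the ribosome ran alongside. Of 55 measured factors of ribosome assembly and rRNA processing, 49 had higher values, the median was 0.25, and 0 passed over all genes. Unadjusted p was under 0.05 in 7 (12.7%), all higher, against 12.1% of all genes in either direction and 5.82% with higher values. Rrs1, an assembly factor, was at 0.39 (SE 0.11, adjusted p = 0.162), and the small nucleolar RNP proteins Nhp2 and Gar1 were at 0.63 (SE 0.21) and 0.48 (SE 0.16). Among 28 genes of RNA polymerases I and III and their factors, 18 were higher (median 0.11) and 0 passed. There were 2 higher and 1 lower at an unadjusted p under 0.05, or 10.7% of the 28. Polr2l, a subunit shared by the polymerases, was at -0.36 (SE 0.15), Polr1d at 0.20 (SE 0.09) and Taf1d at 0.19 (SE 0.09).

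Other TOP mRNAs were higher in 15 of 17 cases with a median of 0.10, and 0 passed. Unadjusted p was under 0.05 in 1 (5.88%), with a higher value, against 12.1% of all genes in either direction and 5.82% with higher values. Npm1, a nucleolar chaperone, was at 0.50 (SE 0.20), the elongation factor subunit Eef1d at 0.27 (SE 0.13) and Nap1l1, a histone chaperone, at 0.27 (SE 0.17). Of 27 further translation factors 19 were higher (median 0.12) and 0 passed, with 3 (11.1%), all higher, at an unadjusted p under 0.05. Eif5a was at 0.45 (SE 0.15), Eif2b2 at 0.23 (SE 0.08) and Eif3c at 0.24 (SE 0.11). These lists were described, not tested as sets.

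**Figure D4:**
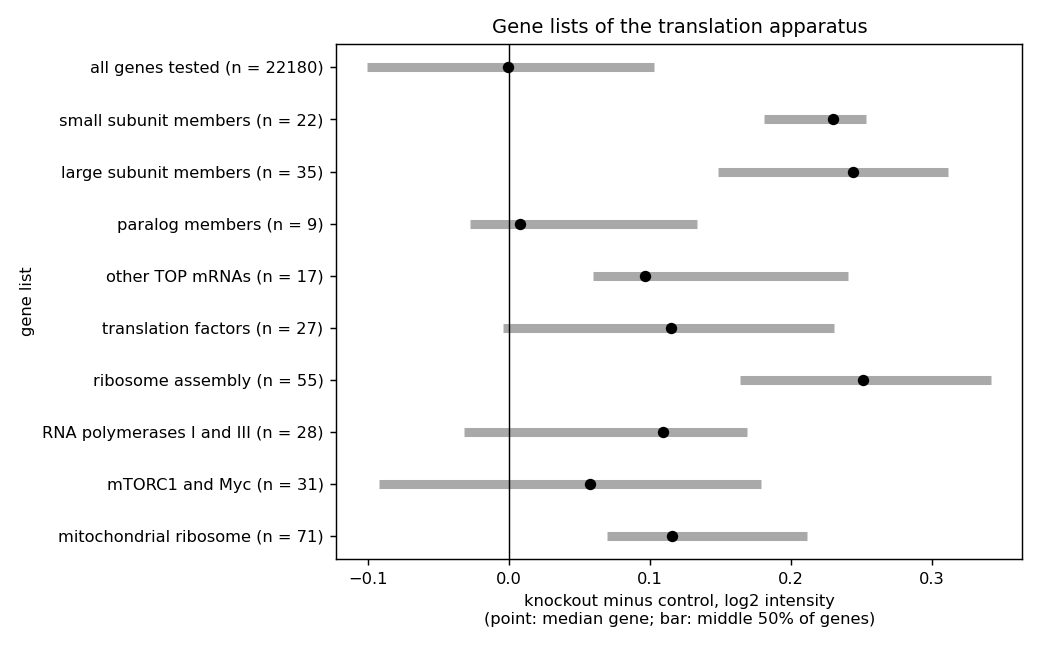
Median difference (points) and middle 50% of genes (bars) in log2 intensity, knockout minus control, for all genes tested and for lists of the translation apparatus. All genes centre on 0, and the small subunit, large subunit and ribosome assembly lists have medians between 0.23 and 0.25.

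In the list of mTORC1 signalling and Myc, 20 of 31 genes were higher and 1 was called, where 0.343% of all genes were called. Unadjusted p was under 0.05 in 5 higher and 2 lower genes (22.6%, against 12.1% of all genes). The called gene was Eif4ebp1, which encodes 4E-BP1, a repressor of cap-dependent translation that mTORC1 inactivates. Its log2 intensity was 7.74, 7.96, 8.24, 8.11 and 8.41 in knockouts 1 to 5 and 7.12, 7.39, 7.26, 7.32 and 7.00 in controls 1 to 5. The groups did not overlap, and the difference was 0.87 (SE 0.13, limma adjusted p = 0.0185). Its order over the knockouts was unlike that of the ribosomal proteins, with knockout 5 highest. Among the fits that left out 1 array, the call ended without knockout 2 (adjusted p = 0.0606), knockout 3 (0.0511), knockout 4 (0.0604), control 1 (0.0552) or control 4 (0.0549), and held without each of the other 5 arrays. Eif4ebp2 stood at 0.32 (SE 0.09, adjusted p = 0.168; 0.0359 without knockout 1) and Rheb, the activator of mTORC1, at 0.22 (SE 0.08). The median of the list was 0.06.

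Mitochondrial ribosomal proteins, a list added after the first values were seen, were higher in 63 of 71 cases with a median of 0.12. Unadjusted p was under 0.05 in 7 of them, all higher (9.86%). Over all genes the share was 12.1% in either direction and 5.82% with higher values. Mrpl54 rose by 0.47 (SE 0.08, adjusted p = 0.0385), from 8.65 ± 0.12 (SD, n = 5) in control to 9.11 ± 0.07 (SD, n = 5) in knockout. It was the 1 gene of the list called, where 0.343% of all genes were called, and 70 of 71 did not pass. The call held without knockout 1 (0.0324) and ended without each of the other 9 arrays, with adjusted p between 0.0552 without control 3 and 0.114 without knockout 2. Mrpl15 was at 0.39 (SE 0.10, adjusted p = 0.135; 0.0337 without knockout 1) and Mrps18c at 0.30 (SE 0.09).

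Markers of dividing crypt cells moved over the arrays with the ribosomal protein genes. The mean of 15 measured of 16 such markers, taken like that of the members, was 0.37, 0.35, 0.26, 0.65 and -0.47 in knockouts 1 to 5 and -0.10, -0.40, 0.41, -0.41 and -0.67 in controls 1 to 5. It was highest in knockout 4 and lowest in control 5, as in the members, and 13 of the 15 had higher values in knockout (median 0.53, 0 called). At an unadjusted p under 0.05 there were 8 higher and 1 lower, or 60.0% of the 15, against 12.1% of all genes. Their summed intensity was 2419 to 5405 in knockout and 2434 to 4848 in control. Mki67, carried by cycling cells, was at 9.58, 9.55, 9.34, 9.92 and 8.36 in knockouts 1 to 5 and at 9.06, 8.78, 9.82, 8.85 and 7.95 in controls 1 to 5. The part of crypt content in the differences of the ribosomal protein genes was not tested. The means of the ribosome assembly genes lay between -0.38 and 0.45 over the knockouts and between -0.39 and 0.30 over the controls, again with knockout 4 highest.

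**Figure D5:**
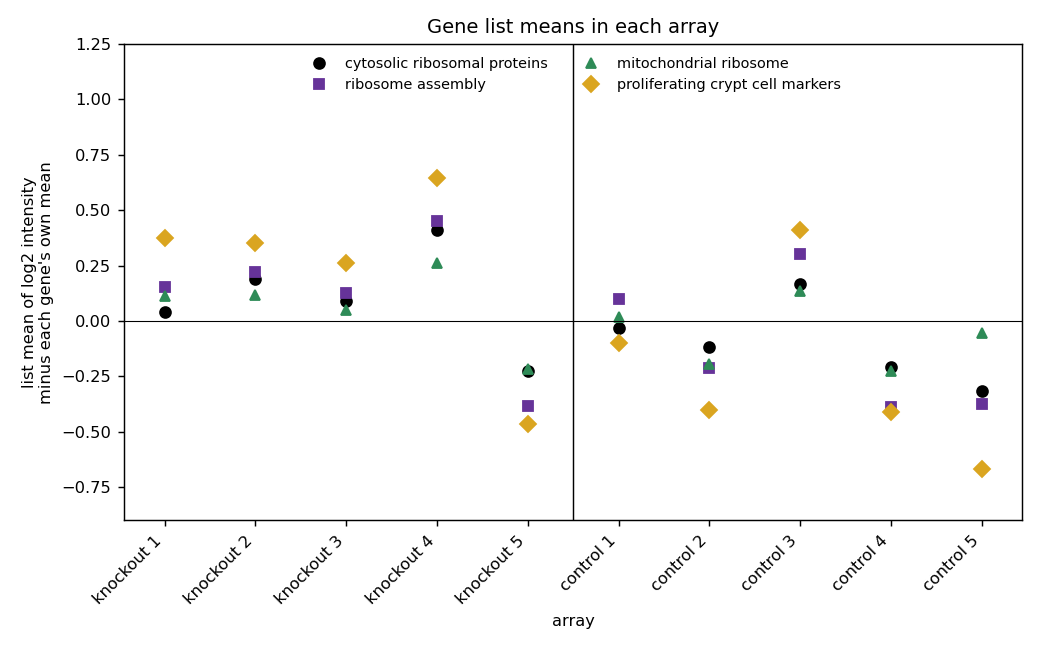
Mean over the genes of a list of log2 intensity minus each gene's own mean over 10 arrays, by array, for cytosolic ribosomal proteins, ribosome assembly factors, mitochondrial ribosomal proteins and markers of proliferating crypt cells. All 4 lists are highest in knockout 4, and the arrays of the groups interleave in each.

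Markers of the other cell types of the crypt also varied within groups. Paneth cell markers (7 of 8 measured, 0 called) lay between -0.80 and 0.77 over the knockouts and between -1.97 and 0.94 over the controls, with control 3 highest and control 5 lowest, and knockout 4 highest and knockout 5 lowest among the knockouts. Their summed intensity was 12807 to 31294 in knockout and 4718 to 35192 in control. Stem cell markers (10 of 10 measured, 0 called) lay between -0.46 and 0.32 over the knockouts and between -0.62 and 0.64 over the controls, with summed intensities of 2090 to 4846 and 1820 to 6930. Mature enterocyte markers, which define the labelled tissue, were bright on every array, with mean log2 intensities from 11.18 to 13.76, and Vil1 between 12.24 and 12.53. Of the 12, 10 had lower values in knockout (median -0.06, 0 called), and their mean was lowest in knockout 4 (-0.22) and highest in control 5 (0.18), the arrays in which the members were highest and lowest. Lct, which encodes lactase, had the smallest p of these, at -0.72 (SE 0.15, adjusted p = 0.0640), with no overlap.

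Markers of place along the gut differed between the groups as well. The mean of 7 measured of 8 ileum markers was -1.13, 1.14, 0.65, 0.73 and 1.17 in knockouts 1 to 5 and -0.63, -0.07, -0.63, -0.47 and -0.75 in controls 1 to 5. All knockouts but knockout 1 thus lay above all controls. Fabp6, the ileal bile acid binding protein, had a difference of 3.89 (SE 0.97, adjusted p = 0.120). Of 8 proximal markers 7 had lower values in knockout, with means between -0.51 and 0.29 over the knockouts and between 0.05 and 0.40 over the controls. In neither list was a gene called. Unadjusted p was under 0.05 in 4 higher and 1 lower ileum markers (71.4%) and 4 lower proximal markers (50%). These shares compare with 12.1% of all genes. Summed intensities of the ileum list were 15086 to 19998 in knockout and 17426 to 19932 in control. That sum rests mostly on its brightest genes, Guca2b and Cubn, which were lower in knockout, at -0.13 (SE 0.08) and -0.84 (SE 0.19). Sums of the proximal list were 9378 to 13479 in knockout and 11798 to 14791 in control. The part of position along the gut in the ribosomal protein values was not tested.

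Enteroendocrine markers had lower values in knockout in 10 of 10 cases, and 2 of them fell by the test. Their means lay between -0.35 and -0.06 over the knockouts and between -0.13 and 0.33 over the controls. Tuft cell means did not overlap, at -0.26 to -0.05 in knockout and 0.05 to 0.28 in control, and 1 of 7 markers measured fell. Over all genes 0.343% were called in either direction. T cell markers were lower in 9 of 9 cases (median -0.76, 0 called). Their means overlapped, at -1.04 to 0.45 in knockout and -0.19 to 1.05 in control. The part of these cell types in the ribosomal protein values was not tested. Pancreatic markers were dim with overlapping groups, at summed intensities of 204 to 230 in knockout and 192 to 234 in control.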

How the data were processed

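RNA of 5 knockout and 5 control samples was measured on 1-colour arrays, and groups and replicate numbers come from the sample titles. RMA and Expression Console 1.4.1.46 are named in the submitters' processing notes, and RMA gives the arrays a shared distribution, so that a shift common to most transcripts would not be seen. As deposited, values are linear intensities with 1 decimal, and further settings are not stated in the labels. The number of arrays limits the precision. The labels do not say outright that each array is 1 animal, so p-values reflect only how these samples vary, in part perhaps technically.

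Log2 was taken. Of 41345 probe sets, 23521 had 1 symbol in GEO's platform annotation, 1814 several and 16010 none. Per gene the probe set with the highest mean over the 10 arrays was kept, leaving 22180 genes. Groups were compared with limma 3.58.1 (lmFit, eBayes) in R 4.3.3, with group as the only term and Benjamini-Hochberg adjustment over the 22180 genes. The script was tested on simulated data. All 66 members were found by Entrez identifier in RefSeq (GRCm38.p6). They and the gene lists were chosen with earlier results of these data known. The members named are those called, the 8 with the smallest p in each direction (5 were lower), paralog pairs, the stalk, Rps6, Rpl5 and Rpl11, Rpsa and Fau, and from other lists those called and the 3 with the smallest p. Mki67, Vil1, Lct, Fabp6, Rpl6 and Rpl6l fall outside this rule and were picked after their values were seen. No detection filter was used. In all, 19 alternatives were run.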

Additional observations from a re-analysis of the deposited data

Results flagged for a closer look

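In 102 groups of 5 arrays that were examined (the named genes and 3 list means), 4 held an array whose gap to the nearest other was over 0.71 of the group's range, where chance gives about 1 in 20. Rpl39 was highest in control 3, at 5.63 against 5.27 to 5.34 in the other controls (gap 0.789 of the range). Eif4ebp2 was lowest in knockout 1, at 8.63 against 8.96 to 9.02 (0.850). Mrpl54 was highest in knockout 5, at 9.24 against 9.06 to 9.10 (0.753). Mrpl15 was lowest in control 5, at 8.23 against 8.47 to 8.50 (0.905).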

How the results depend on the processing

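No member was called under any of the 19 alternatives, and between 55 and 62 members were higher when each array was left out in turn. The median difference was 0.20 to 0.24 under other scaling, filtering, probe set and variance choices, and 0.14 to 0.32 when each array was left out. Members with an unadjusted p under 0.05 numbered 17 with array weights (14.7% of all genes), 15 with the replicate number as a block (11.9% of all genes), 4 without knockout 1 and control 5 together, and 3 to 33 when each array was left out. Over all tested genes, same-numbered samples did not deviate together (r from -0.13 to 0.12 between deviations from the group means). The labels give them only a shared number, and these values cannot tell whether they also share a batch. The block left 27 genes called of 76. The 142 genes called with array weights, 268 without knockout 1 and 11 without knockout 2 show how the count over all genes moved. Signs turned in members near 0. With array weights, Rpl39l was at 0.00674, Rpl10l at -0.00177 and Rps4l at -0.00975. Without knockout 1 and control 5 together, Rps16 was at 0.0730, Rpl22l1 at 0.00944, Rpl39l at 0.0128 and Rpl10l at -0.0212. When each array was left out, differences ran from -0.0235 to 0.0379 for Rpl10l, -0.0698 to 0.00602 for Rpl22l1, -0.0113 to 0.14 for Rpl39, -0.11 to 0.0160 for Rpl39l, -0.0188 to 0.0230 for Rpl3l, -0.0131 to 0.27 for Rpl5, -0.21 to 0.0379 for Rps16 and -0.0955 to 0.12 for Rps4l. With the block, the adjusted p of Eif4ebp1 was 0.0548 and that of Mrpl54 0.100. The cause was not tested. The omission of the dimmest 30% of genes left 60 members, of which 57 were higher.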
